A study of Mus musculus with 8 samples.

Results

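Cxcl12, Kitl, Il7, Vcam1, Bst1, Foxc1, Ebf1 and Ebf3 are 8 genes through which the stroma of bone marrow supports blood cell formation. They were taken by name, by a rule that used no measured value but with earlier results of these data known, from the 28956 genes listed in the count tables of a single-cell RNA sequencing study of mouse femur. The study compared unfractured bone (Control) with bone at day 14 after fracture (Fracture), in wild-type C57BL/6 females that carried no allele or transgene. Fracture mice had the left leg broken by bending at 10 weeks of age and stabilized with an intramedullary nail, so both groups were 12 weeks old at harvest. The methods describe no surgery or nail for Control mice, so effects of the break, the surgery and the nail cannot be told apart. Before encapsulation, cells of the blood lineages and cells bearing CD45 or CD117 were depleted in both groups, which limits what can be seen of the blood cells that respond to these factors. Each group comprised 2 cell preparations, and each preparation was sequenced as 2 droplet libraries, 8 libraries in all. The labels give neither the number of animals nor whether animals were pooled, so a p-value here measures the spread between preparations, which may be technical.

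Blood stem and progenitor cells live in a niche formed largely by perivascular reticular stromal cells and by the endothelium of the marrow sinusoids. These stromal cells, known for abundant Cxcl12 and for the leptin receptor, secrete chemokines and cytokines that hold stem cells in the marrow and feed early lymphoid and myeloid cells. They also carry the adhesion molecule Vcam1, and a small group of transcription factors keeps their identity and prevents them from turning into bone or fat. Loss of these factors from the stroma is known to drive progenitors out of the marrow or to reduce their number.

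Cells were grouped into classes by clustering, with the 8 genes themselves kept out of the genes that formed the clusters, and each class was named from a list of marker genes. The Adipoq stromal class is named for reticular marrow stroma, marked by Adipoq (adiponectin) and Lepr (the leptin receptor). The Mmp9 stromal class is named for matrix-degrading stroma marked by Mmp9. All 8 markers of the Adipoq list were found at a level of 20 CPM or more (counts per 1000000 UMIs of the class) in Adipoq stromal cells of both groups, but their summed level was 22365 and 19285 CPM in the Control preparations against 4790 and 6688 CPM in the Fracture preparations. In the same cells the 8 markers of the Mmp9 list summed to 2355 and 2502 CPM in Control against 7483 and 7084 CPM in Fracture. The class called Adipoq stromal therefore did not hold the same marker levels in the 2 groups. In both Fracture preparations the Mmp9 list summed higher than the Adipoq list, the reverse of Control. The name thus stands for a cluster, and its Fracture cells are not shown to be reticular stroma. Results for this class are given below also for cells chosen by their Adipoq transcripts. All 8 osteoblast markers were above 0 in osteoblast-like cells and all 7 endothelial markers in endothelial-like cells of both groups. A level above 0 is a weak check in sums over so many cells, and it does not compare marker levels between groups.

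Libraries held 56543151 to 89126291 unique molecular identifiers (UMIs, single captured transcripts). Quality filters kept 45328 of 48903 barcodes, and no pair of libraries shared more than 23 barcodes. Libraries of one preparation differed less (chi-square per degree of freedom 5.93 to 8.61) than preparations of one group did. Between preparations the value was 258 to 277 in Control but only 11.4 to 44.1 in Fracture, so the spread between preparations was unlike in the 2 groups. The libraries of a preparation were summed. Adipoq stromal cells numbered 1309 and 981 in the Control preparations but 162 and 189 in the Fracture preparations, which was 14.3% and 19.6% of stromal cells against 1.4% and 1.52%. Stromal cells here means all cells outside the blood classes. Chondrocyte-like cells made up 22.6% and 13.5% of them in Control and 59.0% and 57.6% in Fracture, which lowers the shares of other classes in Fracture. The paper also found fewer diaphyseal stromal cells after fracture, and says that the pin blocking part of the marrow might be a reason. That was not tested here. Mmp9 stromal cells numbered 462 and 253 in Control and 381 and 402 in Fracture. Mesenchymal cells with at least 2 UMIs of Mmp9 and under 2 of Adipoq numbered 91 and 47 in Control and 331 and 327 in Fracture. Most Control cells of the Mmp9 class thus did not meet that rule, and the class may not hold the same cells in both groups. Fracture was set against Control on the UMI counts summed over a class in each preparation, by edgeR's quasi-likelihood test, and a gene was called at a Benjamini-Hochberg adjusted p under 0.05 over all genes tested.

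The genes lie on different chromosomes apart from one pair. In GRCm38, Cxcl12 occupies chr6:117168535-117181367 on the plus strand, Kitl chr10:100015630-100100416 (plus), Foxc1 chr13:31806633-31812476 (plus), and Ebf1 chr11:44617317-45008091 (plus). Il7 occupies chr3:7569994-7613760 and Vcam1 chr3:116109949-116129688, both on the minus strand, Bst1 chr5:43818885-43843986 on the plus strand, and Ebf3 chr7:137193673-137314445 on the minus strand. A gene on the opposite strand overlaps Il7 (Gm16685), Vcam1 (Gm43109), Bst1 (Fbxl5), Ebf1 (Gm12158) and Ebf3 (Gm45278 and Gm10578). Since the strand setting of the counting is not given in the sources used here, reads of these genes and of their overlapping partners cannot be told apart.

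Promoter sequences bear on these genes because several of them are targets or members of the same regulatory families, Ebf1 and Ebf3 being early B-cell factors and Foxc1 a forkhead factor. Windows of 300 bases, from 250 before to 50 after the annotated start, were taken from RefSeq (GRCm38.p6). They were found for Cxcl12, Kitl, Foxc1, Ebf3 and, with 2 starts, Ebf1. Il7, Vcam1 and Bst1 had no entry in the set of promoter windows used here. The windows were searched on both strands for the EBF motif CCCNNGGGA, the forkhead motif GTAAACA and the C/EBP motif TTGCNNAA. Among all 32851 promoter windows, 6.56% held the EBF motif, 3.65% the forkhead motif and 10.8% the C/EBP motif. The only match among the 6 windows was an EBF match in Ebf3 itself, on the opposite strand of the window and shown in capitals at bases 229 to 237 counted from 1 at the 5′ end. The Ebf3 window (minus strand, chr7:137314396-137314695) is shown for that match, and the Cxcl12 window (plus strand, chr6:117168285-117168584), which held none of the 3 motifs, is shown because Cxcl12 had the most UMIs of the 8 genes in Adipoq stromal cells. A match of letters is a description of the window and was not tested against binding.
Ebf3: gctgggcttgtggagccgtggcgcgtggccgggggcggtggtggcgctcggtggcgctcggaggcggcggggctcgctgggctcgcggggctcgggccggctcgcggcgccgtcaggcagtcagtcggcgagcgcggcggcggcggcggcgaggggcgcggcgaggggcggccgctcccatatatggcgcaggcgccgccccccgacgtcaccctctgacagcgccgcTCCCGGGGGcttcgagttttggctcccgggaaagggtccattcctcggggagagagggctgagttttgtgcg
Cxcl12: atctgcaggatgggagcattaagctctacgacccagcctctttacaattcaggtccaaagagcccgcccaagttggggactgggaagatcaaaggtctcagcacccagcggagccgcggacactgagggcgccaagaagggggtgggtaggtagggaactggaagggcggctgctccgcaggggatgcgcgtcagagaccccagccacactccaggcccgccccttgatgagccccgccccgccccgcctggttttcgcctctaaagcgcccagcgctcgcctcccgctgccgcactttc
The GC content was 77.0% in the Ebf3 window and 64.7% in the Cxcl12 window.

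In unfractured bone, 7 of the 8 genes had their highest level in Adipoq stromal cells, and Bst1 was highest in endothelial-like cells. Cxcl12, the chemokine that retains stem cells and B-cell progenitors, reached 33948 and 29117 CPM in Adipoq stromal cells of the Control preparations. The next class, metaphyseal stromal cells, held 12468 and 13209 CPM of Cxcl12, without overlap with the first. Mesenchymal cells without a name came next at 6111 and 11295 CPM. Of these 753 and 354 Control cells, 342 and 196 formed a cluster with a median depth of 0.235 relative to its library. That cluster scored 1.69 on the megakaryocyte list and 1.68 on the Adipoq list, and it held 5 and 16 Fracture cells. Mmp9 stromal cells (1198 and 1153 CPM) and endothelial-like cells (1354 and 918 CPM) followed, and these 2 did not differ beyond the spread of their preparations. Ebf1 was the exception in that its levels in Adipoq stromal cells (1552 and 1643 CPM) and in metaphyseal stromal cells (1453 and 1612 CPM) overlapped. After fracture the order was different for both Foxc1 and Ebf1. Foxc1 was then highest in metaphyseal stromal cells at 309 and 304 CPM, and Ebf1 in smooth muscle cells at 1041 and 1164 CPM. These orders are descriptions, since the classes came from the same cells.

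Free RNA in droplets sets the lowest level that can be read as expression. In erythroid-like cells, which should lack stromal genes, Cxcl12 measured 199 and 49.7 CPM in the Control preparations and 12.3 and 15.1 CPM in the Fracture preparations. Control preparation 1 was the highest of the 4 for Cxcl12, Kitl, Il7, Vcam1 and Ebf3 in these cells. On the CPM scale osteoblast-like cells stood near this background for Cxcl12, at 143 and 75.5 CPM in Control and 18.9 and 18.4 CPM in Fracture. That is 0.719 and 1.52 times the erythroid level of the same preparation in Control and 1.53 and 1.21 times in Fracture. Median depth was 18841 and 21765 UMIs in Control osteoblast-like cells and 2774 and 8375 in Control erythroid-like cells. In Fracture it was 11199 and 12153 against 7365 and 7269. Ratios of CPM are not corrected for depth, so they do not settle how near these cells were to free RNA. Endothelial-like Cxcl12 was 6.81 and 18.5 times the erythroid level in Control and 29.6 and 29.1 times in Fracture.

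**Figure D1:**
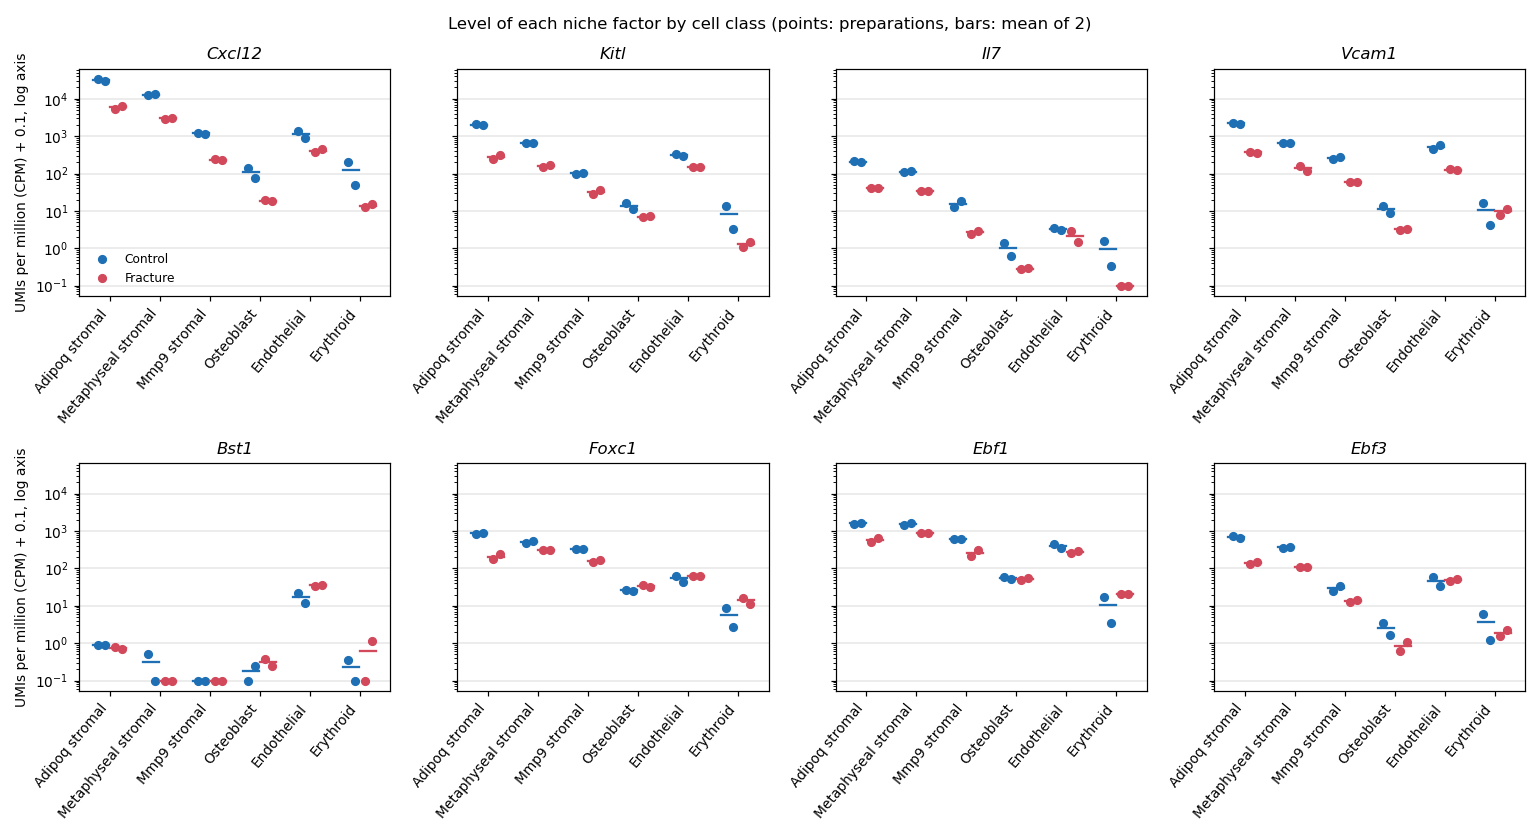
Levels of the 8 genes as CPM + 0.1 (log axis) in Adipoq, metaphyseal and Mmp9 stromal cells and in osteoblast-like, endothelial-like and erythroid-like cells, with 1 point per preparation (blue Control, red Fracture) and a bar at the mean of 2. In Adipoq stromal cells the Fracture points of Cxcl12 (5321 and 6383 CPM) lie below the Control points (33948 and 29117 CPM), whereas Bst1 is highest in endothelial-like cells (21.9 and 11.7 CPM in Control, 34.0 and 36.4 CPM in Fracture).

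The class called Adipoq stromal held less of every testable niche gene in fractured bone, with the shift in class markers given above. All 7 tested genes fell, against 15.3% of the 12580 genes tested in these cells that were called lower, and none rose, against 18.2% called higher. The median log2 change was -2.11 for the 7 genes and -0.03 for all genes tested. In cells chosen by at least 2 UMIs of Adipoq, described below, 1 of the 7 genes was called lower and their median was -0.77. Bst1 did not pass the filter on low counts in these cells.

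Among the secreted factors, Cxcl12 went from 33948 and 29117 CPM in Control to 5321 and 6383 CPM in Fracture. The Control preparations were both high and the groups did not overlap, a 5.39-fold difference of the means. The log2 change was -2.21 ± 0.32 (SE), with an edgeR adjusted p of 0.00567. The call rested on both Fracture preparations, since without the first the adjusted p was 0.162 and without the second 0.132. Kitl, which encodes stem cell factor, the ligand that stem and progenitor cells need through the receptor Kit, was 2056 and 2013 CPM in Control and 249 and 306 CPM in Fracture. It was the member with the greatest change (log2 change -2.66 ± 0.15, adjusted p 0.000621), and its mean in Fracture was 7.33-fold lower. Il7, the cytokine required by early B and T cell progenitors, was lower by 5.03-fold, with 210 and 201 CPM in Control and 42 and 39.7 CPM in Fracture (log2 change -2.11 ± 0.11, adjusted p 0.000413). For Kitl and Il7 the preparations of a group lay close together and far from those of the other group.

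Vcam1, the adhesion molecule bound by the integrin of Itga4 and Itgb1 on blood cells, measured 2274 and 2119 CPM in Control and 383 and 358 CPM in Fracture. Both Fracture values were below both Control values, and the log2 change was -2.35 ± 0.12 (adjusted p 0.000467). Bst1, a surface enzyme first known as a bone marrow stromal antigen, was near 0 in these cells in all preparations, at 0.814 and 0.806 CPM in Control and 0.688 and 0.584 CPM in Fracture. Levels under 1 CPM are too few UMIs to show a difference at this depth.

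The transcription factors had smaller log2 changes than Kitl, a difference between genes that was not tested. Foxc1, which keeps reticular stromal cells from becoming fat cells, was 824 and 903 CPM in Control and 178 and 236 CPM in Fracture (log2 change -1.84 ± 0.17, adjusted p 0.00174). Ebf1 and Ebf3 keep the marrow cavity open by restraining bone formation in these cells. Ebf1 was 1552 and 1643 CPM in Control and 515 and 645 CPM in Fracture, the smallest change among the 7 genes (log2 change -1.24 ± 0.15, adjusted p 0.00378). Ebf3 went from 732 and 666 CPM to 129 and 150 CPM (log2 change -2.11 ± 0.13, adjusted p 0.000639). In all 7 genes both Fracture values were under both Control values, but so they were in 50.4% of the 10629 genes of at least 5 CPM on average in this class, so the lack of overlap is not particular to these genes.

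The lower sums came with a wider spread from cell to cell. Among Control Adipoq stromal cells the median Cxcl12 level was 33.8 and 28.8 per 1000 UMIs, and the 10th to 90th percentiles ran from 24.5 to 43.4 in preparation 1 and from 21.6 to 36.5 in preparation 2. In Fracture the medians were 2.33 and 3.11 per 1000 UMIs, with percentiles from 0.10 to 23.9 and from 0.15 to 25.7. A minority of Fracture cells thus overlapped the Control range, and most were far under it. Cells with at least 10 Cxcl12 transcripts per 1000 UMIs made up 100% of the class in both Control preparations and 27.8% and 37.6% in Fracture. Kitl had medians of 1.94 and 1.84 per 1000 UMIs in Control and 0.05 and 0.16 in Fracture.

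**Figure D2:**
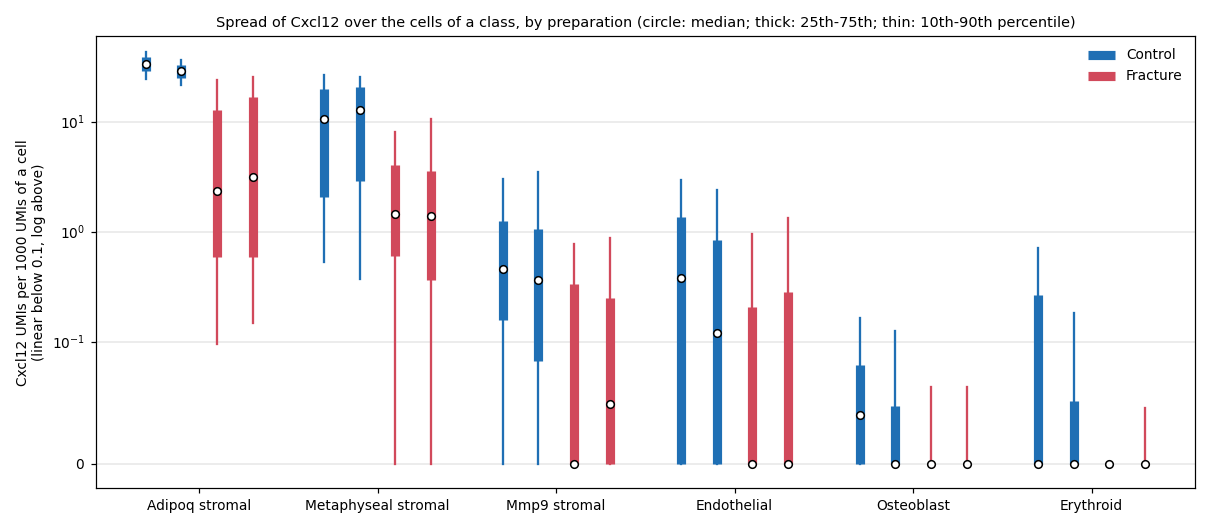
Cxcl12 UMIs per 1000 UMIs of a cell (log axis, linear below 0.1) in 6 classes, 1 mark per preparation, with circles for the median, thick bars from the 25th to the 75th percentile and thin bars from the 10th to the 90th. In Adipoq stromal cells the Control medians are 33.8 and 28.8 with narrow ranges, while the Fracture medians are 2.33 and 3.11 with 90th percentiles of 23.9 and 25.7.

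Counted over all stromal cells of at least 1000 UMIs, whatever their class, cells at 10 or more Cxcl12 transcripts per 1000 UMIs were 1926 of 8978 and 1385 of 4984 in the Control preparations and 69 of 11546 and 107 of 12394 in the Fracture preparations. These are shares of 21.5% and 27.8% against 0.598% and 0.863%. The Adipoq class held 1309 and 981 of these cells in Control and 45 and 71 in Fracture.

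Markers of the class itself moved in the same direction as the niche genes. Adipoq measured 3751 and 3311 CPM in Control against 553 and 729 CPM in Fracture, while Mmp13, a collagenase on the Mmp9 list, measured 550 and 698 CPM against 5422 and 4938 CPM. Membership of the class also depended on integration, the step that aligns the libraries before clustering. Without integration, 2240 of the 2290 Control cells stayed with an Adipoq cluster but only 45 of the 351 Fracture cells did, and 166 went to mesenchymal cells without a name. The Adipoq cluster built that way held 16 and 32 Fracture cells, and since 20 cells a preparation were required its levels were not tested. The shares of its cells that held a transcript are given below. To what extent a changed makeup of the class and a changed level per cell enter the lower sums was not tested.

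With cells chosen instead by at least 2 UMIs of Adipoq and under 2 of Mmp9, a rule added after seeing the data, the decline was smaller and mostly not called. Such cells numbered 1718 and 1263 in Control and 61 and 83 in Fracture. Their Cxcl12 was 29325 and 26744 CPM in Control and 14644 and 14431 CPM in Fracture, so the groups did not overlap, but the adjusted p was 0.115 at a log2 change of -0.87. Kitl was the only one of the 7 genes called, with 1783 and 1847 CPM against 701 and 730 CPM (log2 change -1.26, adjusted p 0.0454), where 0.288% of all genes were called lower. Vcam1 measured 1958 and 1939 CPM against 991 and 764 CPM (log2 change -1.07, adjusted p 0.0582), and Ebf3 656 and 638 CPM against 386 and 356 CPM (log2 change -0.72, adjusted p 0.0627). For Foxc1 (log2 change -0.77), Ebf1 (-0.66) and Il7 (-0.73) the adjusted p was 0.0774, 0.107 and 0.178. The Adipoq marker list summed to 18815 and 17312 CPM in Control and 9795 and 10841 CPM in Fracture in these cells.

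Mmp9 stromal cells held far less of most niche genes than Adipoq stromal cells. In the class built after integration every tested gene fell there too. All 7 were called lower and none higher, where 9.48% of 11678 genes were called lower and 11.5% higher. Il7 was at a few CPM in Fracture, so that it could enter the test only through Control. No median over the tested genes is therefore read here. In the class built without integration, 2 members were called lower and 1 higher, as given below. By DESeq2, 6 of the 7 were called, Ebf3 being the exception (adjusted p 0.082). Bst1 was at 0 in all 4 preparations, and it was not tested.

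Cxcl12 in Mmp9 stromal cells was 1198 and 1153 CPM in Control and 242 and 229 CPM in Fracture (log2 change -2.20 ± 0.08, adjusted p 0.00256). Kitl was 97.6 and 102 CPM against 28.4 and 36.2 CPM, with a log2 change of -1.51 ± 0.15 (adjusted p 0.00617). Neither overlapped between groups, as was so, with Fracture lower, for 42.9% of the 10220 genes of at least 5 CPM on average in this class. Il7 was low throughout, at 12.4 and 18.5 CPM in Control and 2.32 and 2.79 CPM in Fracture (log2 change -2.43 ± 0.34, adjusted p 0.0114). Vcam1 measured 246 and 281 CPM against 59.4 and 57.5 CPM, a log2 change of -2.05 ± 0.11 (adjusted p 0.00256). The transcription factors had log2 changes nearer 0 than these 4 genes. Foxc1 went from 331 and 324 CPM to 147 and 163 CPM (log2 change -0.96 ± 0.09, adjusted p 0.00609), Ebf1 from 613 and 603 CPM to 215 and 313 CPM (-1.08 ± 0.19, adjusted p 0.0188), and Ebf3 from 24.2 and 34.4 CPM to 12.5 and 14.2 CPM (-1.0 ± 0.23, adjusted p 0.0367).

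Most of these calls depended on how the cells were classed. The class built without integration was named for its leading gene, Mmp9, although its mean score was higher on the metaphyseal list (1.32) than on the Mmp9 list (1.2), where the class after integration had 1.12 and 1.16. When the class was built without integration, Cxcl12 was 1619 and 1095 CPM in Control and 1598 and 1376 CPM in Fracture, which overlap (log2 change 0.17, adjusted p 0.617). Vcam1 (269 and 273 CPM against 127 and 95.3 CPM, adjusted p 0.0190) and Foxc1 (372 and 352 CPM against 266 and 269 CPM, adjusted p 0.0477) were then the only members called lower, where 3.03% of all genes were. Ebf3 was called higher, at 37.0 and 30.9 CPM in Control and 60.9 and 53.3 CPM in Fracture (log2 change 0.78, adjusted p 0.0422), where 3.36% of all genes were. When cells were chosen by at least 2 UMIs of Mmp9 and under 2 of Adipoq, 6 of the 7 genes were called lower against 7.26% of all genes, the exception being Ebf3 (log2 change -0.88, adjusted p 0.122). Vcam1 and Foxc1 were thus the genes called lower in Mmp9 stromal cells under all 3 ways of choosing them. With either Fracture preparation left out, no gene at all was called by edgeR in this class, although 2773 and 3059 genes had an unadjusted p under 0.05.

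Osteoblast-like cells carried little of all 8 genes, none above 143 CPM. Of the 7 genes tested, Cxcl12, Kitl and Vcam1 were called lower and none higher, where 6.29% of 13592 genes were called lower and 9.4% higher. Il7 and Ebf3 passed the filter on low counts at a few CPM or less and were higher in Control, so no median over the tested genes is read here.

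Cxcl12, at 143 and 75.5 CPM against 18.9 and 18.4 CPM, had a log2 change of -2.61 ± 0.30 (adjusted p 0.0111), and its ratio to the erythroid background was given above. Vcam1 was 13.3 and 8.44 CPM against 3.0 and 3.24 CPM (log2 change -1.86 ± 0.24, adjusted p 0.0139), and it stood at 0.808 and 2.04 times the erythroid level in Control and 0.380 and 0.288 times in Fracture. Kitl was 16 and 11.5 CPM against 6.81 and 7.02 CPM (log2 change -1.05 ± 0.17, adjusted p 0.0224), at 1.21 and 3.71 times the erythroid level in Control and 6.89 and 4.98 times in Fracture. The Adipoq marker list also measured less in these cells after fracture, 151 and 103 CPM against 59.1 and 55.5 CPM, and how far free RNA enters these 3 changes was not tested. Ebf1, at 59.7 and 53.4 CPM against 50.3 and 56.1 CPM, overlapped between groups (log2 change -0.15, adjusted p 0.343). Foxc1 was slightly higher in Fracture, 36.6 and 31.2 CPM against 26.9 and 24.8 CPM, without a call (log2 change 0.32, adjusted p 0.0801). Il7 stayed at or under 1.29 CPM, and Bst1, not tested, at 0 and 0.151 CPM in Control and 0.288 and 0.145 CPM in Fracture. With the preparation number as a block, Kitl lost its call (adjusted p 0.0565). With cells called doublets removed, Cxcl12 was the only member still called (log2 change -1.87, adjusted p 0.0150), and with either Fracture preparation left out no gene was called by edgeR, with 2613 and 2660 genes at an unadjusted p under 0.05.

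Endothelial-like cells divided the 8 genes. Cxcl12, Kitl and Vcam1 fell and Bst1 rose, where 17.1% of 14264 genes were called lower and 19.1% higher. The 1 gene higher out of 8 is thus a share near that of all genes. The median log2 change was -0.47 for the 8 genes and 0.01 for all genes, but with cells called doublets removed the median of the 8 was 0.01, with the same 4 genes called.

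Vcam1, which activated endothelium is known to raise, went from 451 and 596 CPM in Control to 131 and 122 CPM in Fracture (log2 change -1.93 ± 0.16, adjusted p 0.00566). Cxcl12 was 1354 and 918 CPM against 365 and 441 CPM, with a log2 change of -1.37 ± 0.22 (adjusted p 0.0143). Kitl, which endothelium supplies to stem cells alongside reticular stroma, was 337 and 294 CPM against 145 and 149 CPM (log2 change -0.98 ± 0.08, adjusted p 0.00588). In all 3 the Control preparations were both the higher ones, as in 48.3% of the 10771 genes of at least 5 CPM on average in this class. Bst1 was the reverse, at 21.9 and 11.7 CPM in Control and 34.0 and 36.4 CPM in Fracture. Its log2 change was 1.19 ± 0.30 (adjusted p 0.0412), and the call was lost when library size alone was used for scaling (adjusted p 0.0530) or when the preparation number was a block (0.0583). Foxc1, Ebf1, Ebf3 and Il7 were not called, at log2 changes of 0.33, -0.41, 0.18 and -0.53. With either Fracture preparation left out, no gene was called by edgeR here, with 4022 and 4368 genes at an unadjusted p under 0.05.

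**Figure D3:**
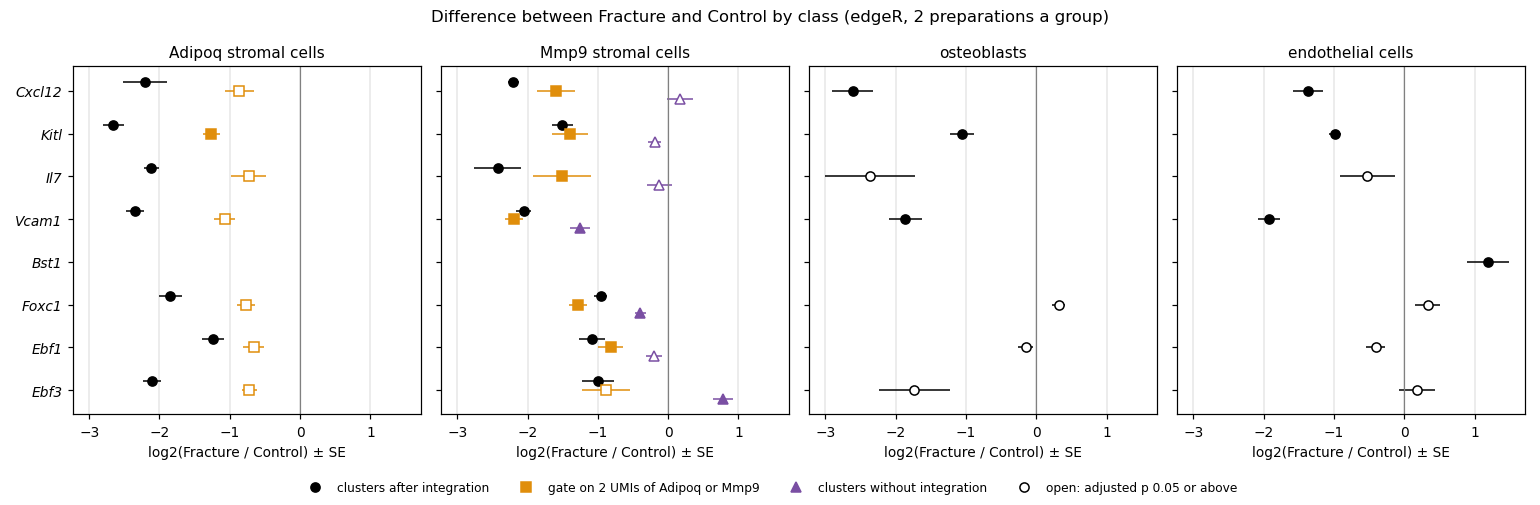
Log2 change of each gene, Fracture against Control, in the 4 classes, with bars for 1 SE from edgeR and filled symbols for an adjusted p under 0.05 (circles, classes after integration; squares, cells chosen by 2 UMIs of Adipoq or Mmp9; triangles, Mmp9 stromal cells classed without integration). Circles in Adipoq stromal cells lie between -2.66 for Kitl and -1.24 for Ebf1 and the squares nearer 0, and Bst1 in endothelial-like cells (1.19) is the filled circle above 0.

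The changes were set against each other by an interaction test, that is a test of whether the change with fracture differed between classes, in which classes of one preparation were blocked together. Compared with Mmp9 stromal cells, the change in Adipoq stromal cells was more negative for Kitl by 1.14 on the log2 scale (adjusted p 2.58e-05), for Ebf3 by 1.13 (adjusted p 0.00187) and for Foxc1 by 0.88 (adjusted p 0.000134), where 5.87% of all genes were called in that direction. For Cxcl12 the difference of the changes was 0.00 ± 0.14 (SE), so a gap much over that error was not seen. Compared with osteoblast-like cells, the change was more negative for Foxc1 by 2.18 (adjusted p 9.61e-14), for Kitl by 1.63 (adjusted p 2.53e-09) and for Ebf1 by 1.12 (adjusted p 2.86e-08), where 12.6% of all genes were. Compared with endothelial-like cells it was more negative for Ebf3, Foxc1, Kitl, Il7, Cxcl12 and Ebf1, by 2.34, 2.22, 1.70, 1.59, 0.88 and 0.87, where 8.26% of all genes were. Vcam1 was called in none of these 3 tests, with differences of -0.29, -0.52 and -0.46.

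These differences depended on the choice of cells. Between cells chosen by 2 UMIs of Adipoq or Mmp9, no member had a more negative change in the Adipoq cells, and Vcam1 and Cxcl12 had a less negative one, by 1.14 (adjusted p 0.000681) and 0.70 (adjusted p 0.0366). Of all genes 1.71% were called more negative and 2.75% less negative in that test. Foxc1, Kitl and Ebf1 still had a more negative change in Adipoq cells than in osteoblast-like cells, by 1.19, 0.83 and 0.63, where 2.68% of all genes were called so. Against endothelial-like cells, Foxc1 and Ebf3 did, by 1.18 and 1.00, whereas Vcam1 had a less negative one, by 0.77, where 2.64% and 1.51% of all genes were called in these directions.

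The share of cells with a transcript was compared after thinning each cell to 1000 UMIs. In Adipoq stromal cells, Kitl was found in 83.7% and 82.6% of Control cells and in 22.1% and 26.6% of Fracture cells. The same shares without thinning were 99.0% and 99.5% against 50.6% and 56.6%. Cxcl12 was found in 100% of Control cells and in 71.2% and 73.9% of Fracture cells, and in erythroid-like cells in 17% and 5.87% against 1.4% and 1.77%. Il7 was found in 18.0% and 16.8% against 5.32% and 4.62%, Vcam1 in 84.8% and 81.9% against 29.1% and 29.7%, and Foxc1 in 55.4% and 58.2% against 17.9% and 23.4%. Ebf1 was the transcription factor most often still found after fracture, in 40.4% and 47.0% of cells, from 76.6% and 79.0% in Control. Without thinning the Fracture shares came close to those of Control for Cxcl12 (93.2% and 97.4%) and Ebf1 (91.4% and 96.3%). In the 16 and 32 Fracture cells of the Adipoq cluster built without integration, the shares after thinning were also nearer those of Control. Kitl was found in 70.2% and 72.0% of these cells, from 84.1% and 82.7% in Control, a difference of -12.3 percentage points in place of -58.8. For Vcam1 the difference was -13.8 in place of -53.9, for Foxc1 -15.1, for Il7 -5.21 and for Cxcl12 -4.18 in place of -27.5. With 2 preparations a group the two-sided exact permutation test cannot give a p under 0.333, which was the value for each of these 6 genes. Median depth was 5453 and 7311 UMIs in Control and 8367 and 7951 in Fracture for Adipoq stromal cells, and 2774, 8375, 7365 and 7269 in the same order for erythroid-like cells. For endothelial-like cells it was 4097 and 5338 in Control and 7511 and 8128 in Fracture, a difference that enters their shares without thinning. In endothelial-like cells, Bst1 was found in 2.06% and 1.02% of Control cells and in 3.70% and 4.00% of Fracture cells, or in 9.03% and 6.31% against 23.3% and 25% without thinning, and in at most 0.113% of erythroid-like cells with thinning and 1.04% without.

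The classes from which the transcripts came changed as well, since both the number of cells and their levels enter. Of all stromal Cxcl12 UMIs, Adipoq stromal cells held 76.1% on average in Control and 36.7% in Fracture. Their share of Kitl was 65.5% against 12.5%, of Il7 73.4% against 26.7%, and of Vcam1 62.5% against 7.33%. Endothelial-like cells held 11.6% of Kitl in Control and 51.8% in Fracture, and 5.08% and 38.9% of Ebf3. Chondrocyte-like cells, which form the cartilage of the callus, held 17.3% of Foxc1 in Control and 75.7% in Fracture. They also held 53.6% of Vcam1 and 33.6% of Ebf1 in Fracture, from 1.49% and 1.46% in Control, although their level of Vcam1 was only 20.3 and 14.9 CPM in Control and 44.5 and 45.6 CPM in Fracture. Bst1 came from endothelial-like cells in both groups, at 89.99% and 92.1%.

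Over all stromal cells together Cxcl12 was 3659 and 4920 CPM in Control and 157 and 182 CPM in Fracture, a ratio of 25.3. The ratio of Control to Fracture was 18.0 for Il7, 13.8 for Kitl, 10.5 for Ebf3, 6.83 for Vcam1, 3.0 for Ebf1 and 1.81 for Foxc1. Bst1 was 2.25 and 1.94 CPM in Control and 2.97 and 3.39 CPM in Fracture. These sums were not tested. The share of each class among stromal cells and the level of the gene within a class both enter them. Among these is the larger share of chondrocyte-like cells in Fracture given above, and how far each enters was not tested.

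**Figure D4:**
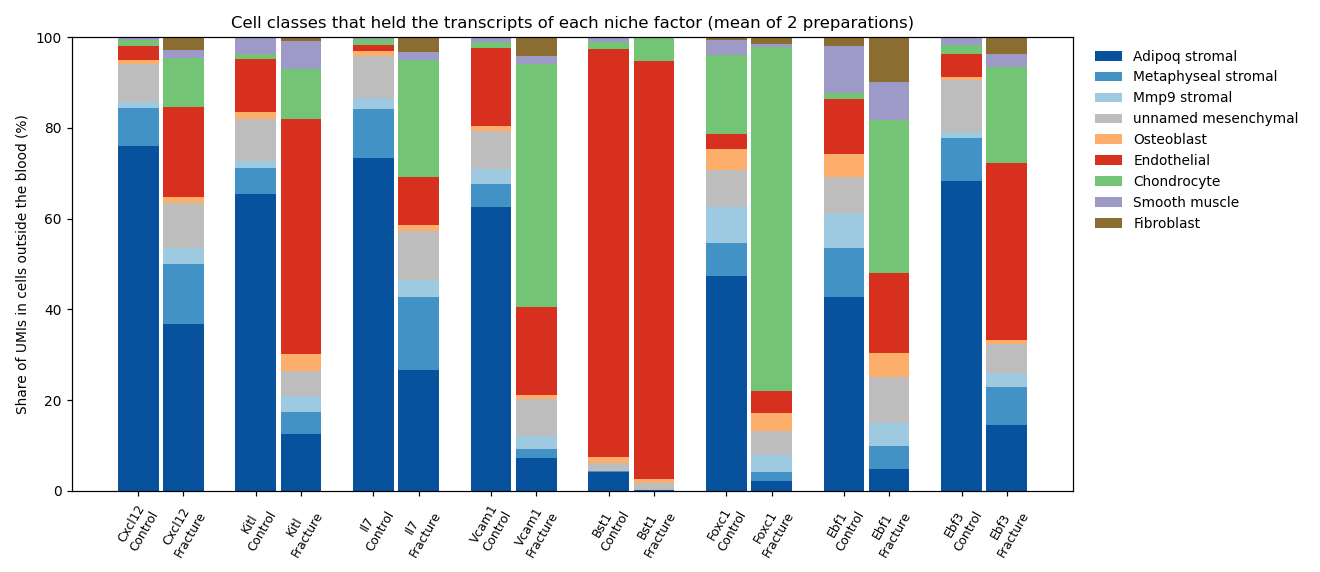
Share (%) of each gene's UMIs in cells outside the blood that each class held, stacked to 100% and averaged over 2 preparations in Control and in Fracture. Adipoq stromal cells (dark blue) go from 76.1% to 36.7% for Cxcl12 and from 65.5% to 12.5% for Kitl, and endothelial-like cells (red) hold 51.8% of Kitl in Fracture.

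Other genes of the niche were taken from a list of 47 ligands, adhesion molecules, receptors, transcription factors and surface markers. In Adipoq stromal cells 36 of these could be tested, of which 20 were called lower, 6 higher and 10 neither, with a median log2 change of -0.85. Over all genes tested in these cells 15.3% were called lower and 18.2% higher, with a median of -0.03. Of the 16 ligands on the list that were tested, 10 were lower and 3 higher. The called genes with the greatest falls were Lepr, at 1770 and 1915 CPM against 142 and 159 CPM (log2 change -3.39 ± 0.14, adjusted p 0.000303), Bmp6, a bone morphogenetic protein, at 40.6 and 50.2 CPM against 4.82 and 3.50 CPM, and Il15, a cytokine for natural killer cells, at 68.8 and 67.7 CPM against 8.26 and 6.42 CPM. Lepr is itself on the list that marks the class. Those with the greatest rises were Fn1, the matrix protein fibronectin, at 86.0 and 26.9 CPM against 4857 and 3887 CPM, Ackr3, a scavenging receptor for Cxcl12, at 0.543 and 0.134 CPM against 16.5 and 26.3 CPM, and Spp1, osteopontin, at 788 and 364 CPM against 6657 and 4917 CPM. The Ackr3 level in Control rests on 4 and 1 UMIs, so that it could enter the test only through Fracture, and its place in this order depends on how a level near 0 is treated. In cells chosen by 2 UMIs of Adipoq, 38 genes of the list were tested. Lepr, Fgf7 and Snai2 were called lower and Fn1 higher, with a median log2 change of -0.23. Of all 12859 genes tested in those cells, 0.288% were called lower and 69 genes higher, so few genes of any kind were called.

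In Mmp9 stromal cells 33 of the 47 genes could be tested, with 9 called lower and 3 higher, where 9.48% of all genes were called lower and 11.5% higher. Il15 there was 5.52 and 6.43 CPM against 0.869 and 1.27 CPM, and Ptn, the growth factor pleiotrophin, 11.5 and 10.2 CPM against 62.6 and 59.8 CPM. The level of Il15 in Fracture was so low that it could enter the test only through Control. In osteoblast-like cells 34 could be tested, with 5 called lower and 9 higher, where 6.29% and 9.4% of all genes were. In endothelial-like cells 43 could be tested, with 8 lower and 11 higher, where 17.1% and 19.1% of all genes were, so the share lower is near that of all genes. Dpp4, a protease that inactivates Cxcl12, was 3.05 and 4.67 CPM in Control endothelial-like cells and 0.990 and 0.737 CPM in Fracture. It was called lower, but at its Fracture level it could enter the test only through Control, and no fold is given. Csf3, the growth factor of neutrophils, was at 0.113 and 0.615 CPM there in Control and at 9.36 and 4.94 CPM in Fracture. It was called higher, but the Control level rests on 1 and 5 UMIs, so that it could enter the test only through Fracture and no fold is given. Of the receptors on blood cells, Cxcr4, the receptor of Cxcl12, was at 308 and 257 CPM in the basophil and neutrophil-like cells left after depletion in Control and at 86.3 and 91.9 CPM in Fracture, values that were not tested. This mixed class held 2279 and 915 cells in Control and 89 and 87 in Fracture, and the other listed receptors are not given for it.

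Genes whose level followed that of a member were sought over the 40 sums of a class in a preparation, among 11257 genes. Fbln5, a protein of elastic fibres, had the level most like that of Cxcl12 (Pearson's r 0.950 on the log2 scale), followed by Gas6 (0.949), a ligand of receptor tyrosine kinases, and Ebf3 (0.948). For Kitl the most alike were Gm4951 (r 0.958), Ebf3 (0.928) and Irgm2 (0.927), and for Il7 Aldh1a2 (r 0.966), an enzyme that makes retinoic acid, Arrdc4 (0.962) and Marc1 (0.956). For Vcam1 they were Fbln5 (r 0.936), Gm4951 (0.924) and Gas6 (0.921), and for Foxc1 Snai2 (r 0.954), a repressor of epithelial genes, Cd302 (0.932) and Dlg5 (0.922). For Ebf3 they were Fbln5 (r 0.949), Cxcl12 (0.948) and Gm4951 (0.946). Gm12158 had the level most like that of Ebf1 (r 0.977), but it overlaps Ebf1 on the opposite strand, and B3gnt1 (0.933) and Cyp4v3 (0.928) followed. Bst1 was under 5 CPM on average and was not compared. The sums share preparations, classes and depth, so these values are descriptions.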

How the data were processed

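The deposited tables give, for each gene and barcode, UMI counts without normalization, which the authors made from reads of 10x Chromium 3′ libraries. The submitters' processing notes name the build mm10, bcl2fastq 2.19.1.403, UMI-tools 1.0.0, STAR 2.7.3a and featureCounts 1.6.4. How barcodes were selected before deposit is not settled, and the floor differed by group: the smallest barcode of a library held 1 to 3 UMIs in Control and 1929 to 2724 in Fracture, so that the filters kept 84.5% to 86.2% and 99.3% to 99.8% of barcodes. The published methods name STARsolo for mapping, and EmptyDrops in a section whose thresholds are for other datasets of the study. Their section on the fracture data does not name EmptyDrops. The part of the differing floor in cell shares and in the erythroid-like background cannot be told apart from the groups.

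Cells were kept at 500 to 6000 genes and up to 25% mitochondrial UMIs, and genes when seen in 3 cells or more. Libraries were integrated by anchors in Seurat 5.3.0 on 1917 variable genes and 30 dimensions, after 152 listed genes (the 8 members, other niche genes and cell cycle genes) were taken out. Clusters came from 12 components at resolution 0.1, mesenchymal cells were clustered again from 13 components at 0.5, and classes were named from marker lists. Scrublet in scanpy 1.11.5 called 718 cells doublets (1.58%), which were kept except in one alternative.

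UMIs were summed by class and preparation, with at least 20 cells each. CPM are UMIs per 1000000 UMIs of the class in a preparation. Tests used edgeR 4.0.16 with TMM, filterByExpr and Benjamini-Hochberg adjustment over all genes tested. They were first run on counts simulated with a single fixed dispersion that was not estimated from these preparations. That run therefore does not show how the tests behave at the spread of these data. DESeq2 1.42.0 was an alternative. Members and gene lists were chosen with earlier results of these data known. The text names the 8 members in each of the 4 classes compared, and the 3 genes most like each member among genes of at least 5 CPM on average. Of the other listed niche genes it names the 3 called with the largest rise and fall in Adipoq stromal cells. It also names those with the largest in Mmp9 stromal and endothelial-like cells. Cxcr4 in basophil and neutrophil-like cells was named outside this rule. Coordinates are from GENCODE M21.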

Additional observations from a re-analysis of the deposited data

Results flagged for a closer look

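The change with fracture differed between cell classes for 12 pairs of a gene and a class, by the class-by-group test of edgeR. These were 3 of 7 genes tested against Mmp9 stromal cells, 3 of 7 against osteoblast-like cells and 6 of 8 against endothelial-like cells. Of all genes 5.87%, 12.6% and 8.26% were called in that direction in the same tests. The values are the log2 change in Adipoq stromal cells minus that in the other class. Against Mmp9 stromal cells these were -1.14 for Kitl, -1.13 for Ebf3 and -0.88 for Foxc1. Against osteoblast-like cells they were -2.18 for Foxc1, -1.63 for Kitl and -1.12 for Ebf1. Against endothelial-like cells they were -2.34 for Ebf3, -2.22 for Foxc1, -1.70 for Kitl, -1.59 for Il7, -0.88 for Cxcl12 and -0.87 for Ebf1. Il7 was at 3.39 CPM or less in endothelial-like cells, so its value rests on few UMIs there. Kitl and Foxc1 differed in all 3 comparisons with the classes built after integration. In cells chosen by 2 UMIs of Adipoq or Mmp9, no member was called more negative against Mmp9 stromal cells. The differences for Kitl and Foxc1 turned sign there, and Kitl was not called against endothelial-like cells. With 2 preparations a group, no preparation could be tested as an outlier.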

How the results depend on the processing

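The 7 tested genes kept their direction in Adipoq stromal cells under all 14 alternatives. Choosing cells by 2 UMIs, an alternative added after seeing the data, left 106 genes called in Adipoq stromal cells, in place of 4212, and 537, 764 and 641 genes in the tests against Mmp9 stromal, osteoblast-like and endothelial-like cells, in place of 2237, 4050 and 2629. It turned the difference against Mmp9 stromal cells for Vcam1 (1.14), Cxcl12 (0.70), Foxc1 (0.55), Kitl (0.18), Ebf1 (0.17) and Ebf3 (0.17), that against osteoblast-like cells for Ebf3 (0.087), and that against endothelial-like cells for Vcam1 (0.77) and Cxcl12 (0.42). In Mmp9 stromal cells 2450 genes were called, against 713 without integration, 1572 with subclusters at resolution 0.8, 1330 with DESeq2 and 3813 with no filter on low counts. Without integration the change turned for Cxcl12 (0.17) and Ebf3 (0.78), as did the share of cells with Ebf3 (2.26 percentage points). Levels in Adipoq stromal cells were not tested without integration, for lack of Fracture cells. With no filter 2157 genes were called in Adipoq stromal cells.

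Leaving out one preparation moved the count of called genes between 1589 and 4770 in Adipoq stromal cells, 0 and 3524 in Mmp9 stromal cells, 0 and 5278 in osteoblast-like cells (2133 with all preparations) and 0 and 7149 in endothelial-like cells (5173 with all), with 0 called whenever a Fracture preparation was missing in these 3 classes. In the test against endothelial-like cells it ran from 1339 to 2943. The lone preparation was then assumed to vary like the other group. Values near 0 changed sign. With one preparation left out, the difference for Cxcl12 against Mmp9 stromal cells ran from -0.17 to 0.17 (0.07 without Control preparation 1) and that for Il7 from -0.01 to 0.63, and the first was 0.017 in cells of at least 3000 UMIs. Against osteoblast-like cells it ran from -0.031 to 0.64 for Cxcl12, from -1.0 to 0.069 for Ebf3 and from -0.63 to 0.61 for Il7, and with doublets removed it was -0.41 for Cxcl12 and -0.60 for Il7. In endothelial-like cells the change of Ebf3 ran from -0.14 to 0.59, and that of Il7 was 0.50 with doublets removed. The difference in the share of Adipoq stromal cells with Bst1 ran from -0.031 to 0.006 percentage points and was 0.153 without thinning. The cause of these shifts was not tested. Of the other comparisons of single genes and shares, 765 kept direction and side of the threshold or stayed within the spread, 71 lost a call and 26 gained one.

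Preparation numbers are shared between groups by label only. Deviations of same-numbered preparations correlated at 0.03 in Adipoq stromal, -0.01 in Mmp9 stromal, 0.03 in osteoblast-like and 0.07 in endothelial-like cells, so the numbers were not taken to pair samples. With the replicate block 3656, 1485, 1034 and 3883 genes were called in these classes. With each library as a replicate, 4772 genes were called in osteoblast-like cells. Scaling by library size alone, added after seeing the data, shifted the median log2 change in Adipoq stromal cells from -0.03 to -0.24 and the calls from 2288 higher and 1924 lower to 1741 and 3114, and the 7 genes were called lower under both.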
